A study of Rattus norvegicus with 3 samples.

Results

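Mitochondrial carriers and the machinery of mitochondrial protein import were examined in the medullary thick ascending limb (mTAL), a tubule segment of the rat kidney outer medulla. The members were all probe sets whose only gene symbol in the platform annotation begins with Slc25a, Timm or Tomm. They numbered 64 genes, 40 carriers and 24 import genes, measured by 91 probe sets, of 14217 genes and 20826 probe sets with 1 gene symbol. For a gene with several probe sets the one with the highest mean log2 signal was used. The 3 samples formed 1 group: mTAL from Sprague-Dawley rats, all male and aged 7 to 8 weeks, each profiled on 1 Affymetrix array, with no other tissue or treatment for comparison. The rats were given furosemide, a diuretic that blocks salt uptake in this segment (1 mg), together with heparin (250 u) 30 minutes before death, and the tubules were freed by collagenase and hyaluronidase and separated on Percoll. The labels do not say whether a sample was 1 rat or a pool. Each p-value sets a gene's distance above a detection cutoff, given below, against the spread between these 3 samples, moderated over all genes. That spread may be technical variation alone.

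The mTAL pumps salt out of the tubule against a steep gradient and is rich in mitochondria. Carriers of the SLC25 family are proteins of the mitochondrial inner membrane, with a few exceptions, that exchange nucleotides, phosphate, organic acids, amino acids and cofactors between the cytosol and the matrix. Nearly all mitochondrial proteins are made in the cytosol and enter through the outer membrane translocase (TOM). From there those with a presequence pass through the TIM23 complex, while carriers are escorted by small TIM chaperones to the TIM22 complex.

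Signals are linear, 1 per probe set, and are given for replicates 1, 2 and 3 in that order or as mean ± SD (n = 3). A gene was called detected where its log2 signal lay above a cutoff on the same array, by limma with a one-sided test and Benjamini-Hochberg adjustment over all genes (adjusted p under 0.05). As cutoff served the signal that 95% of 66 measured genes of non-renal tissues stayed under, which was 426, 365 and 401. The median signal of an array was 256, 287 and 267. Of those 66 genes 3 passed the test themselves, Cela1, Krt10 and Mbp. All 14 measured thick limb markers, among them Umod and Slc12a1, were detected. The 22 proximal tubule markers differed widely between arrays, with summed signals of 8589, 27948 and 84119 on replicates 1, 2 and 3. The test called 3 of them, but 6 were below the cutoff on every array. Kap, with 169, 7164 and 26093, was not called although it was above the cutoff on replicates 2 and 3. Detection reached 6 of 6 markers of the thin limb, 5 of 8 of principal cells, 6 of 9 of endothelium, 3 of 10 of leukocytes and 0 of 5 of intercalated cells (limma, 1 of these 5 at an unadjusted p under 0.05). The arrays were of bulk tissue, in which fewer cells of a type and less RNA per cell cannot be told apart. A signal above another gene's does not mean more transcript, because hybridisation strength varies with the probes, and cross-hybridisation between close relatives was not tested.

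Transcripts of 52 of the 64 members were detected, or 81.3%, against 52.9% of all genes. Carriers contributed 30 of 40 and import genes 22 of 24. The median member stood 1.99, 1.81 and 1.74 log2 units above the median gene of its array (1.85 ± 0.13), and by definition the median over all genes is 0. The log2 signal of 12 members was more than 4 units above the cutoff, a share of 18.8% against 7.61% of all genes. The adjusted p of the detected members ran from 0.000101 to 0.0334, and that of the other 12 from 0.553 upward (limma). The call depends on the cutoff. With the 99th percentile in place of the 95th, 36 members were detected, against 25.9% of all genes, and with the 90th 54 were, against 62% of all genes.

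**Figure D1:**
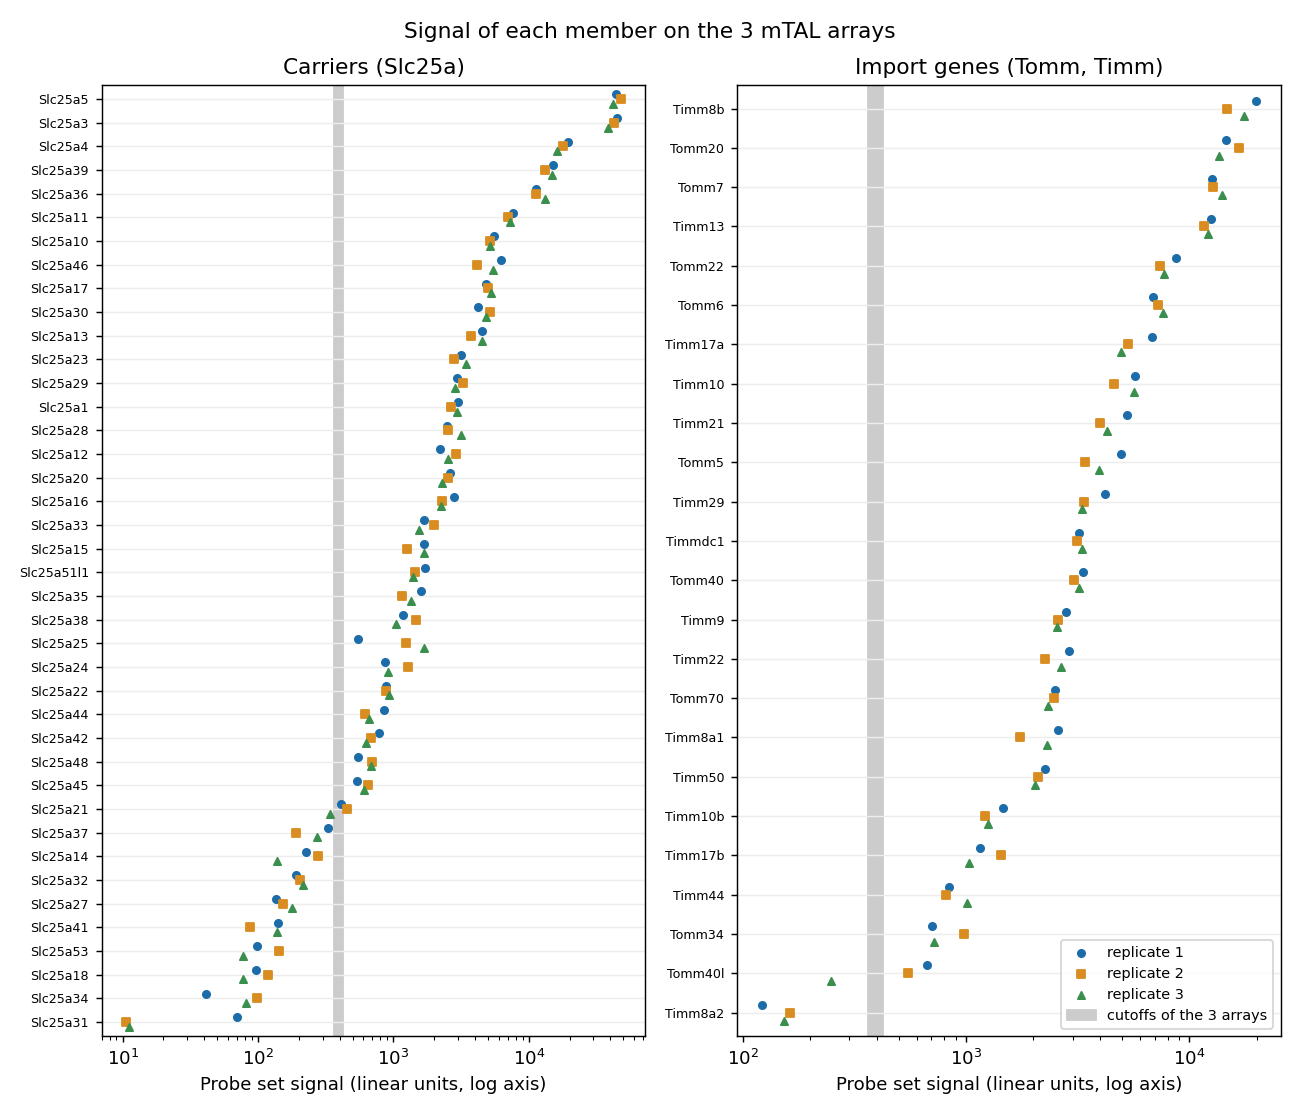
Signal of each member on the 3 arrays (log axis), carriers on the left and import genes on the right, ordered by mean, with the grey band covering the cutoffs of 365 to 426. Most members lie to the right of the band on every array, and Slc25a31 lies farthest to its left. Arrays are far apart for Slc25a25 and Tomm40l, and also for Slc25a31 and Slc25a34, which lie left of the band.

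The carriers that exchange ADP for ATP and bring in phosphate were detected in 6 of 8 cases. Slc25a5, an ADP/ATP carrier found in many tissues, had signals of 44157, 47602 and 41587, which is 6.81 log2 units above the cutoff (SE 0.13, limma adjusted p = 0.000101). The phosphate carrier Slc25a3, which supplies ATP synthase, gave 44937, 42491 and 38383. The 3 arrays lay close together for both genes. Slc25a4, the ADP/ATP carrier known from heart and muscle, had signals of 19604, 17738 and 16163, also far above the cutoff on every array. The testis ADP/ATP carrier Slc25a31 had only 69.8, 10.7 and 11.2 and was not detected. So the ADP/ATP carriers divided into a pair seen on every array and a germ cell form below the cutoff on all 3.

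The ATP-magnesium/phosphate carriers, whose main forms are switched on by calcium and adjust the adenine nucleotide content of the matrix, were detected in 3 of 4 cases. Slc25a23 had 3151, 2801 and 3413, with its arrays close together. Slc25a24 had 859, 1283 and 916, all above the cutoff. For Slc25a25 the signals were 543, 1234 and 1679, so that replicate 1 stood far below the other arrays. It was detected (1.39 log2 units above the cutoff, SE 0.41, limma adjusted p = 0.0334), but not without replicate 2 (adjusted p = 0.145) or without replicate 3 (adjusted p = 0.114), nor with Myh1 among the cutoff genes (0.126) or without eBayes moderation (0.112). Slc25a41, a relative without the calcium-binding domain, had signals of 139, 87.2 and 137 and was not detected.

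RefSeq promoter sequences (build GRCr8, 250 bases before to 50 after the start of the gene) were found for 56 of the 64 members. Both strands were searched for 4 motifs known from genes of mitochondria or of cyclic AMP signalling: CCGGAAG of ETS factors, GCGCA, any base and GCGC of NRF-1, TCAAGGTCA of the estrogen-related receptors (ERR) and TGACGTCA, the cyclic AMP response element (CRE). The ETS letters stood in 14 of the 56 member promoters (25.0%), against 20.8% of the promoters of detected genes and 15.05% of those of all 11701 measured genes with a promoter. Those of NRF-1 stood in 4 members (7.14%, against 8.495% of all), those of ERR in 1 (1.79%, against 0.214%) and the CRE in 2, Slc25a25 and Slc25a33 (3.57%, against 2.85%). Among detected genes alone, the NRF-1 letters stood in 6.52% of member promoters, against 11.8% of all, the ERR letters in 2.17%, against 0.267%, the CRE in 4.35%, against 3.33%, and the ETS letters in 26.1%, against the 20.8% above. Slc25a5, the member of highest signal, held none of the 4. Other spellings had been looked at first, and the motifs and the promoters shown were chosen with matches and signals in view. A match is only a stretch of letters, and its use in the mTAL was not measured. Below stand the promoters of the phosphate carrier and a main ADP/ATP carrier, each with 1 ETS match, and of Slc25a25, the detected member that differed most between arrays, with its CRE. Capitals mark all matches of the 4 motifs, which do not overlap.
Slc25a3 (chr7:27506578-27506877, minus strand): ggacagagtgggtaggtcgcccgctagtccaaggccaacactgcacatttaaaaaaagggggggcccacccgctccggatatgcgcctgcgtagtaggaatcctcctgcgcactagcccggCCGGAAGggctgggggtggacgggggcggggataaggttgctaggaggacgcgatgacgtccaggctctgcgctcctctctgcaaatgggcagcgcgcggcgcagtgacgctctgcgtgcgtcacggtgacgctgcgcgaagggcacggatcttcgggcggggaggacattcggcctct
Slc25a4 (chr16:52805271-52805570, plus strand): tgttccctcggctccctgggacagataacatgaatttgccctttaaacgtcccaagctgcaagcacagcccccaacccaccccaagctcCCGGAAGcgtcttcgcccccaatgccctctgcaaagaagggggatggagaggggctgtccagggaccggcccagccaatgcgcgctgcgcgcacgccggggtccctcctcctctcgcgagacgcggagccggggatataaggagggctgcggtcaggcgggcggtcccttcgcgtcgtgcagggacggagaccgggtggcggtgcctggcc
Slc25a25 (chr3:36116532-36116831, minus strand): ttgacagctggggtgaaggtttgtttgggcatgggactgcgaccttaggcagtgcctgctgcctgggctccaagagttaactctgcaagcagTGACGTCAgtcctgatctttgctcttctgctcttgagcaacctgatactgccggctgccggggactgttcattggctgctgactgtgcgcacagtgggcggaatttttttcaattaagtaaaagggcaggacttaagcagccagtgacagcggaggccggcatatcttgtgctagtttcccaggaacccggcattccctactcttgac
The ETS match begins 129 bases before the start of Slc25a3 and 161 before that of Slc25a4. The CRE begins 158 bases before the start of Slc25a25. The member promoters had a median GC content of 58.5%, against 60.0% for all measured genes. It was 59.3% for the 46 detected members, against 61.7% for all detected genes, and 53.8% for the 10 members with a promoter that were not detected.

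Carriers of organic acids, aspartate and glutamate were detected in 6 of 8 cases. The oxoglutarate-malate carrier Slc25a11 had signals of 7650, 6979 and 7244. The aspartate-glutamate carriers form the other arm of the malate-aspartate shuttle, which moves reducing power from cytosolic NADH into mitochondria. Both were detected, Slc25a13 with 4258 ± 442 and Slc25a12, the form known from brain and muscle, with 2550 ± 345. The dicarboxylate carrier Slc25a10, which exchanges malate or succinate for phosphate, had signals of 5546, 5130 and 5206, and the citrate carrier Slc25a1 had 2867 ± 168. Each of the carriers named so far in this role was thus above the cutoff on all 3 arrays. Of the glutamate carriers, Slc25a22 was detected with 884, 885 and 927, while Slc25a18 was not, with 96.1, 119 and 76.8. Slc25a21, which carries oxoadipate from lysine and tryptophan breakdown, had 407, 451 and 337. It lay at the cutoff itself, above it on 1 array, and was not called (adjusted p = 0.862).

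All 7 measured carriers of amino acids, carnitine and related compounds were detected. Slc25a29, a carrier of basic amino acids, had signals of 2969, 3256 and 2867. Slc25a20, which brings acylcarnitines in for fatty acid oxidation, had 2611, 2513 and 2281. Both were well above the cutoff, with little spread between arrays. The ornithine carrier Slc25a15 (1692, 1262 and 1688) and the glycine carrier Slc25a38 (1232 ± 216), which serves haem synthesis, followed. Slc25a44, a carrier of branched-chain amino acids, had 710 ± 125. It was not called with Myh1 among the cutoff genes (limma adjusted p = 0.203), with the mean over its probe sets (0.0506) or with the dimmer one. The dimmer one was at 0.0072 log2 units against the cutoff recomputed from the dimmest probe sets (340, 294 and 357). Against the main cutoff it was at -0.26. Slc25a48 with 550, 690 and 687 and Slc25a45 with 541, 645 and 609 were among the detected members nearest the cutoff. Neither of those was called when replicate 2 or replicate 3 was left out, with adjusted p from 0.0686 to 0.0856. Both calls were also lost with Myh1 among the cutoff genes (adjusted p = 0.971 for Slc25a45 and 0.493 for Slc25a48) and without eBayes moderation (0.0501 and 0.0523), and that of Slc25a48 with the mean over probe sets (0.0620).

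Carriers of cofactors, pyrimidine nucleotides, glutathione and metals were detected in 7 of 9 cases. Slc25a39, which takes glutathione into the matrix, had signals of 15064, 13244 and 14947. The pyrimidine nucleotide carrier Slc25a36 had 11353, 11224 and 13237, and its relative Slc25a33 had 1729 ± 227. All 3 of these genes were above the cutoff on every array. Slc25a17, a carrier of the peroxisome membrane, had 5032 ± 192, and Slc25a16, linked to coenzyme A, 2445 ± 304. The coenzyme A carrier Slc25a42, with 780, 682 and 625, was the next detected member above Slc25a45 and Slc25a48 in distance from the cutoff. The mitoferrins, which bring iron into mitochondria, gave opposite calls. Slc25a28, the form found in many tissues, had 2480, 2547 and 3145 and was detected, and Slc25a37, the form of red cell precursors, had 331, 189 and 274 and was not. Slc25a32, the carrier of flavin and folate, was not detected either, with 191, 203 and 215.

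Of 7 carriers of the uncoupling protein type or of unsettled substrate, 3 were detected. Slc25a46, which sits in the outer membrane and acts in mitochondrial shape, had signals of 6232, 4152 and 5471. Slc25a30, described as a kidney mitochondrial carrier, had 4182, 5145 and 4844. Both were more than 3 log2 units above the cutoff. Slc25a35 had 1362 ± 220. The brain uncoupling proteins Slc25a14 (224, 275 and 138) and Slc25a27 (136, 154 and 179) were below the cutoff on every array. The same held for Slc25a53, with 98.7, 144 and 76.7, and Slc25a34, with 41.4, 98.8 and 80.8. The annotated gene Slc25a51l1, which was assigned to none of these roles, was detected with 1521 ± 166.

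**Figure D2:**
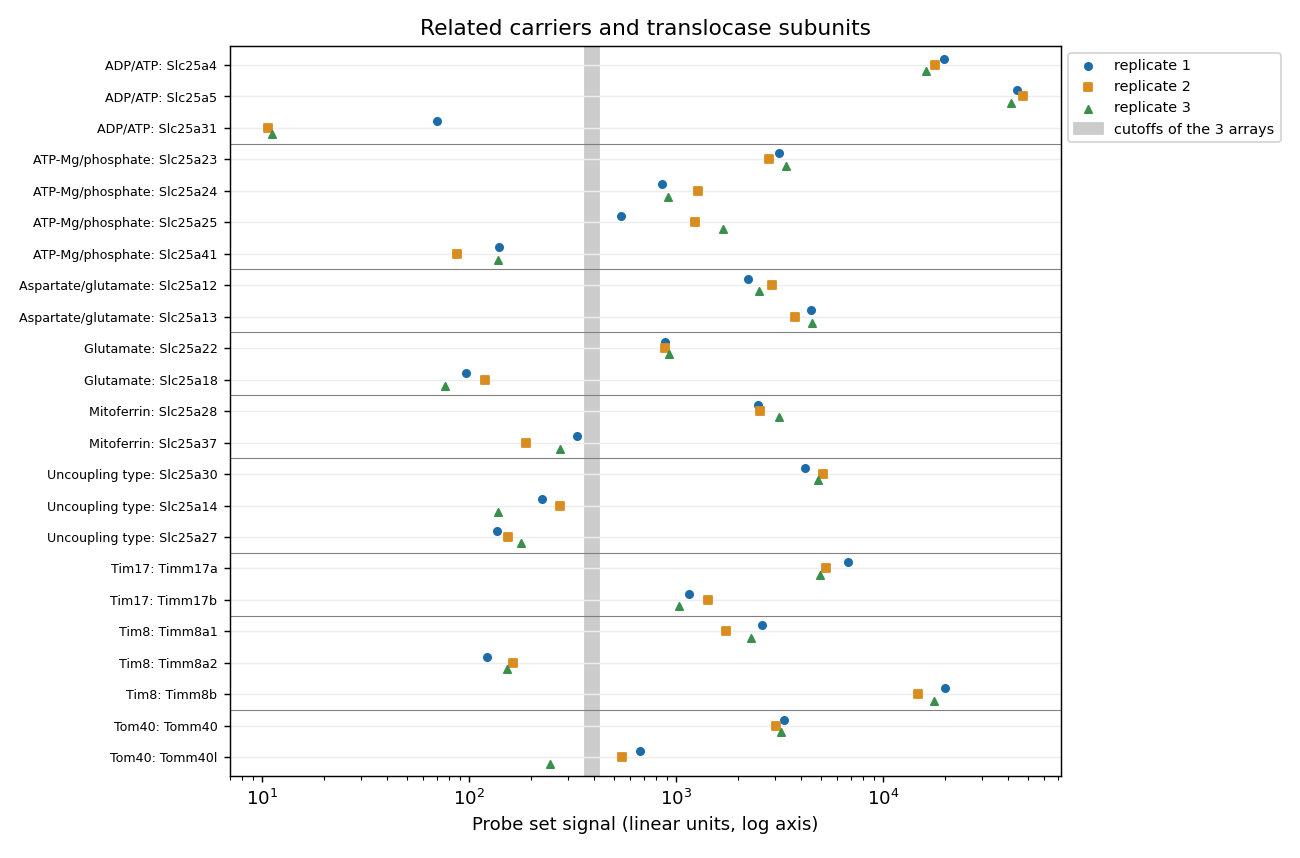
Signal on each of the 3 arrays (log axis) for carriers and translocase subunits with close relatives, 1 family to a block, with the grey band covering the cutoffs. In the ADP/ATP, ATP-magnesium, glutamate, mitoferrin, uncoupling type and Tim8 families, some relatives lie right of the band and another lies left of it on all arrays.

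Of the 9 measured genes named for the outer membrane translocase, 8 were detected. Tomm20, a receptor that binds presequences, had signals of 14593, 16675 and 13594. The small subunit Tomm7 had 12641, 12729 and 13998. Each stood more than 5 log2 units above the cutoff on average, with the 3 arrays close together. The central receptor Tomm22 had 7925 ± 659, the small subunits Tomm6 and Tomm5 had 7232 ± 387 and 4101 ± 787, and Tomm40, the pore itself, had 3196 ± 143. Tomm70, the receptor for carriers, gave 2426 ± 91 and Tomm34, a cytosolic co-chaperone, 801 ± 155. The pore, its receptors and all 3 measured small subunits were thus detected together. Tomm40l, a relative of the pore, had 668, 547 and 247. It was above the cutoff on replicates 1 and 2, below it on replicate 3 and not called (0.18 log2 units above, adjusted p = 0.553), whereas without replicate 3 it was (adjusted p = 0.0426).

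All 5 measured genes of the presequence translocase TIM23 were detected. Timm17a, which borders the channel, had signals of 6807, 5325 and 4936, and its relative Timm17b had 1205 ± 201. Timm21, which links the complex to TOM and the respiratory chain, had 5278, 3980 and 4274. Both genes of the highest signal in this complex were highest on replicate 1. The receptor Timm50 had 2130 ± 117, and Timm44, which holds the mitochondrial Hsp70 at the channel, had 837, 809 and 1012. Timm23, the channel protein, had no probe set to itself and is treated in the closing observations.

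Of 10 small TIM chaperones and TIM22 genes 9 were detected. Timm8b had signals of 19837, 14765 and 17597, and Timm13, known as the partner of Tim8 in the intermembrane space, had 12536, 11595 and 12057. Both were far above the cutoff on each array. Timm10 (5308 ± 624) and Timm9 (2650 ± 134), which together carry hydrophobic precursors, and Timm10b (1313 ± 136), their docking relative, were detected. So were the carrier insertase Timm22 (2603 ± 318) and Timm29 (4170, 3390 and 3316), its partner in human cells. Timm8a1 had 2214 ± 435. Timmdc1, whose product serves complex I assembly and not import, had 3223 ± 86. The Tim8 copy Timm8a2 was the exception, with 121, 163 and 152, below the cutoff on every array. The promoters of the receptor Tomm20 and the chaperone Timm8b, the highest signals of TOM and of the small TIMs, are shown for their several motif matches, with all matches of the same 4 motifs in capitals.
Tomm20 (chr19:71832371-71832670, minus strand): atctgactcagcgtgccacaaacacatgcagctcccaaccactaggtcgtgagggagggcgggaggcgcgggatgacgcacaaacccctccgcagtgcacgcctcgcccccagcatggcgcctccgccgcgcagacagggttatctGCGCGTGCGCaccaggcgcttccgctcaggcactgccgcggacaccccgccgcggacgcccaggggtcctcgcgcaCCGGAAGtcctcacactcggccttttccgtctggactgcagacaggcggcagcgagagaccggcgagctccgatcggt
Timm8b (chr8:59850487-59850786, plus strand): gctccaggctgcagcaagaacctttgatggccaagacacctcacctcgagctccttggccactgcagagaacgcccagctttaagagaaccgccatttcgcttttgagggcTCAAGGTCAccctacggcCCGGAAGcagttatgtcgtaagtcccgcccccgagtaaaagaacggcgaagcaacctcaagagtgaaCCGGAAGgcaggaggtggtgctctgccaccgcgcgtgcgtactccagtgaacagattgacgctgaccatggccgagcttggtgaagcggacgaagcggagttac
In Tomm20 the NRF-1 letters, read on the opposite strand, begin 104 bases before the start and the ETS letters 28 bases before it. Timm8b holds the ERR letters 139 bases before its start and ETS letters at 121 and 54 bases before it. It was the only member promoter with the ERR letters.

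**Figure D3:**
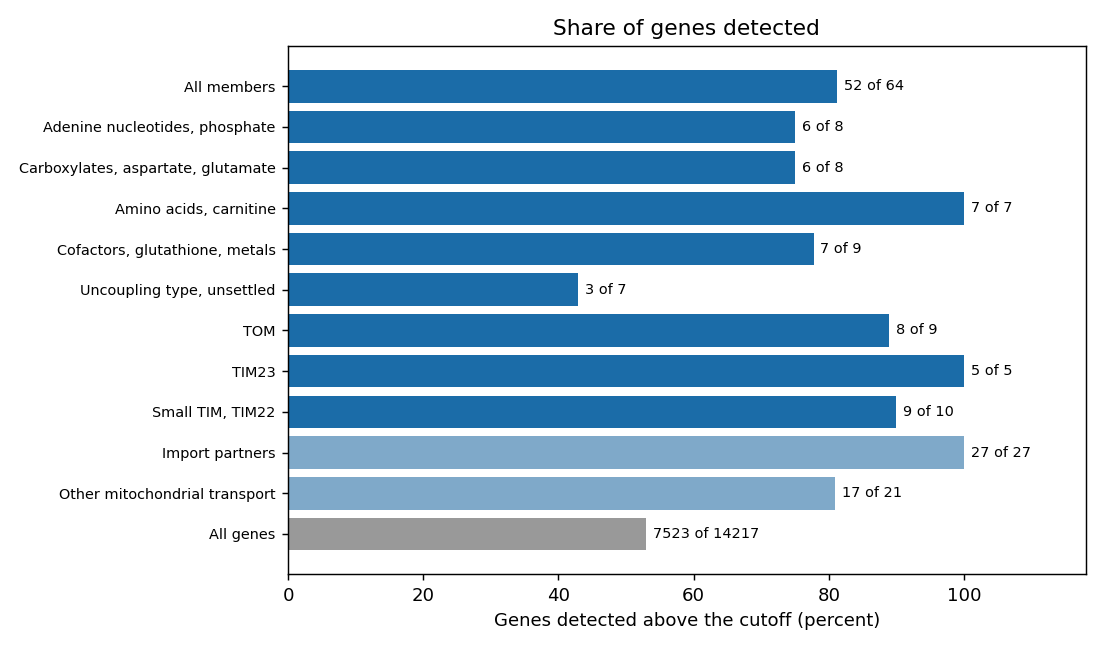
Share of genes detected above the cutoff, in percent, for all members, for each role, for the lists of import partners and other mitochondrial transport genes, and for all genes. The roles run from 3 of 7 for carriers of uncoupling type or unsettled substrate to 7 of 7 for amino acid and carnitine carriers and 5 of 5 for TIM23, beside 52.9% of all genes.

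Transcripts of the proteins that work with these translocases were detected throughout at the main cutoff. All 27 measured import partners were called, against 52.9% of all genes, at a list level of 3.11 ± 0.21 log2 units above the median gene. At the 99th percentile cutoff 21 of them were called (25.9% of all genes). With the lowest probe set of each gene 24 were (40.5%), and with Myh1 among the cutoff genes 26 were (45.8%). The matrix chaperonins Hspd1 (28539, 27503 and 27088) and Hspe1 (23907, 22789 and 23662) and the cristae organiser Immt (20441, 17319 and 18370) had the highest signals. Hspa9, the Hsp70 that pulls precursors into the matrix, had 13089 ± 1250, and Gfer, the oxidase that serves the intermembrane space, 635 ± 42. These lay 5.04 and 0.68 log2 units above the cutoff (Hspa9 and Gfer were chosen after their values were seen).

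Among 21 other mitochondrial transport genes, 17 were detected, against 52.9% of all genes, at a list level of 2.92 ± 0.10. The highest were the pyruvate carrier subunit Mpc1 (38803, 39153 and 33302) and the outer membrane channels Vdac3 (30773, 23792 and 23726) and Vdac2 (26785, 26718 and 23554). All 3 were far above the cutoff on each array. The uncoupling protein Ucp1, known from brown fat, had 81.6, 18.8 and 146 and Ucp3, known from muscle, 75.1, 209 and 103. Neither was detected, and neither was the sideroflexin Sfxn5, with 130, 168 and 117. Sfxn1, the serine carrier, had 123, 399 and 630, and was below the cutoff on replicate 1 and above it on the other arrays. Ucp2 was detected with 1286 ± 221 (chosen after its values were seen).

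For most members the 3 preparations differed little. Among the 53 members whose log2 signal, averaged over arrays, exceeded the averaged cutoff, the SD over arrays had a median of 0.15 log2 units, against 0.16 for all 8336 such genes. An SD above 0.5 was seen in 2 members, or 3.77%, against 5.69% of those genes. The same 2, Slc25a25 and Tomm40l, had a range over arrays above 1 log2 unit (3.77%, against 5.22%). The other 51 had ranges of at most 0.59. This choice of genes used the mean, not the test, since the test itself depends on the spread.

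The small differences between arrays mostly ran one way. After subtraction of each array's median over genes, replicate 3 was higher than replicate 1 in 10 of the 53 members (18.9%), against 32.1% of all genes above the mean cutoff. The median difference was -0.21 log2 units for the members, -0.15 for their carriers and -0.25 for their import genes, against -0.12 for all such genes. Thick limb markers differed by -0.26 and import partners by -0.24 at the median, in the same direction. The thick limb markers ran from -1.19 for Kcnj1 to 0.54 for Casr, with 3 of 14 higher on replicate 3. The shift was not particular to replicate 3. For replicate 2 minus replicate 1 the median was -0.20 for the 53 members, against -0.12 for all such genes. Before the subtraction, 30 of the 53 members were highest on replicate 1, against 3013 of the 8336 genes. On these arrays 22 of 22 proximal tubule markers were higher on replicate 3 than on replicate 1, with a median difference of 3.47. Markers of principal cells (median 1.45, 7 of 8 higher), intercalated cells (1.31, 5 of 5) and endothelium (0.74, 8 of 9) were mostly higher on replicate 3 too, and those of leukocytes (0.39, 6 of 10) and the thin limb (0.38, 4 of 6) less uniformly. Their summed signals on replicates 1, 2 and 3 were 11788, 16547 and 25443 for principal cells, 1093, 2758 and 3032 for intercalated cells and 15572, 26267 and 23899 for endothelium. Those of the thin limb were 32258, 79208 and 46290, and those of leukocytes 2871, 5262 and 4739. Replicate 2 was higher than replicate 1 in 6 of 6 thin limb markers (median 1.16) and in 6 of 10 leukocyte markers (0.39). The log2 ratio of 3′ to 5′ control probe sets, which is high in degraded RNA, was 1.48, 1.18 and 1.95 for Actb and 0.51, 0.43 and 0.60 for Gapdh. The part of any of these in the members' differences was not tested. Each array is 1 preparation, so these differences have no replicate test.

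A difference of 2-fold or more between replicates 3 and 1 was seen in 1 member upward (1.89%, against 2.77% of all genes above the mean cutoff) and in 1 downward (1.89%, against 0.384%). The first was Slc25a25, higher by 1.51 log2 units on replicate 3 and by 1.10 on replicate 2 than on replicate 1. Tomm40l was the other, at -1.55 on replicate 3 and -0.38 on replicate 2. Its other probe set did not show this fall. That one had 248, 120 and 270, below the cutoff on every array and highest on replicate 3. Of the remaining 51 members, none lay outside -0.58 to 0.23 for replicate 3 minus replicate 1. Beside Slc25a25, a list of immediate early genes, added after the members' values were seen, was also higher on replicate 3. All 15 measured genes, such as Fosb and Nr4a1, stood above their level on replicate 1, with a median difference of 0.84 and summed signals of 139707, 172004 and 255150. The proximal tubule, principal cell, intercalated cell and endothelial markers given above were also higher on replicate 3 at the median. Of the 22 proximal tubule markers 6 were below the cutoff on every array, though none was at 0. The part of any of these lists in the Slc25a25 difference was not tested.

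**Figure D4:**
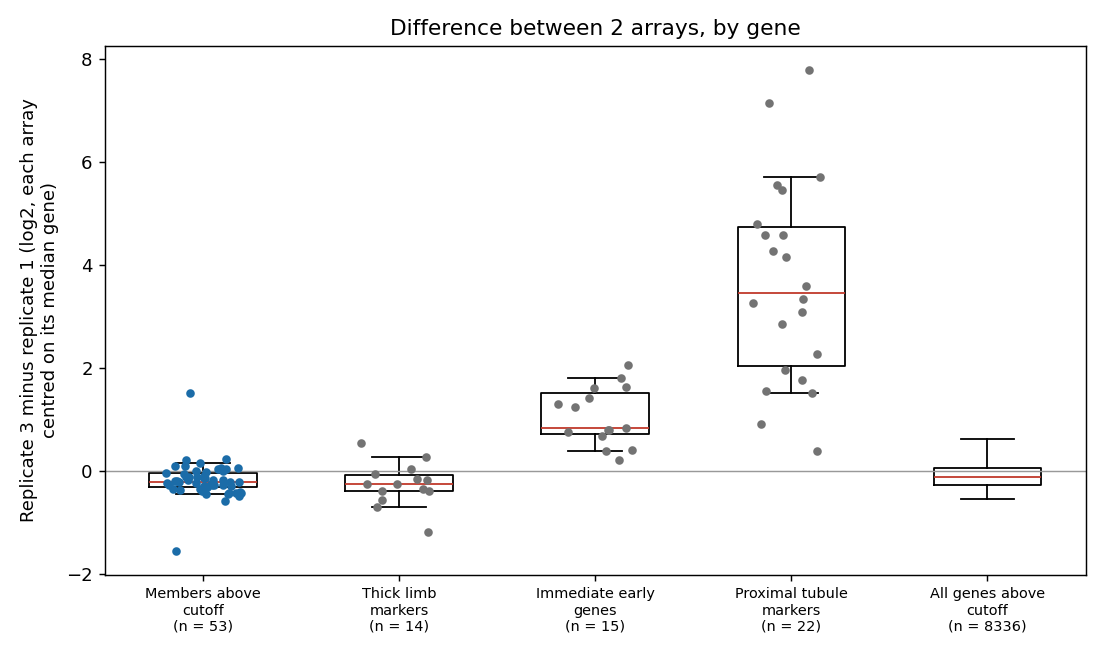
Difference in log2 signal between replicate 3 and replicate 1, after subtraction of each array's median; points are genes, boxes the quartiles and median, whiskers the 5th to 95th percentile. The 53 members and the 14 thick limb markers have medians near each other. Among the members Slc25a25 at 1.51 and Tomm40l at -1.55 lie apart, and the thick limb markers run from -1.19 (Kcnj1) to 0.54 (Casr). All proximal tubule markers and immediate early genes are above 0.

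Several members were measured by more than 1 probe set, and these often gave unlike signals. Of 21 such genes, 17 had probe sets more than 1 log2 unit apart on average, 13 more than 2 and 5 more than 4, with a median of 2.12. For 10 of the 21 every probe set was above the cutoff on all arrays, among them Tomm70 (2426 ± 91 and 2379 on average) and Tomm20 (14954 and 9481). Each of the 5 with the widest spread had a brightest probe set above the cutoff and another below it. The dimmest probe set had a mean signal of 8.14 for Slc25a15 (6 probe sets), 29.8 for Slc25a23 (3), 229 for Slc25a39, 19.5 for Timm44 and 149 for Timm29. With the dimmest probe set none of these 5 genes was called. Slc25a15 nevertheless had 4 of its 6 probe sets above the cutoff on all arrays, whereas each of the other 4 genes had only its brightest there. With the mean over probe sets, limma still called Slc25a39 (adjusted p = 0.000911) and Timm29 (adjusted p = 0.00372), but not Slc25a15 (adjusted p = 0.0685), Slc25a23 or Timm44. With the dimmest probe set for every gene, 44 of the 64 members were detected, against 40.5% of all genes.

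**Figure D5:**
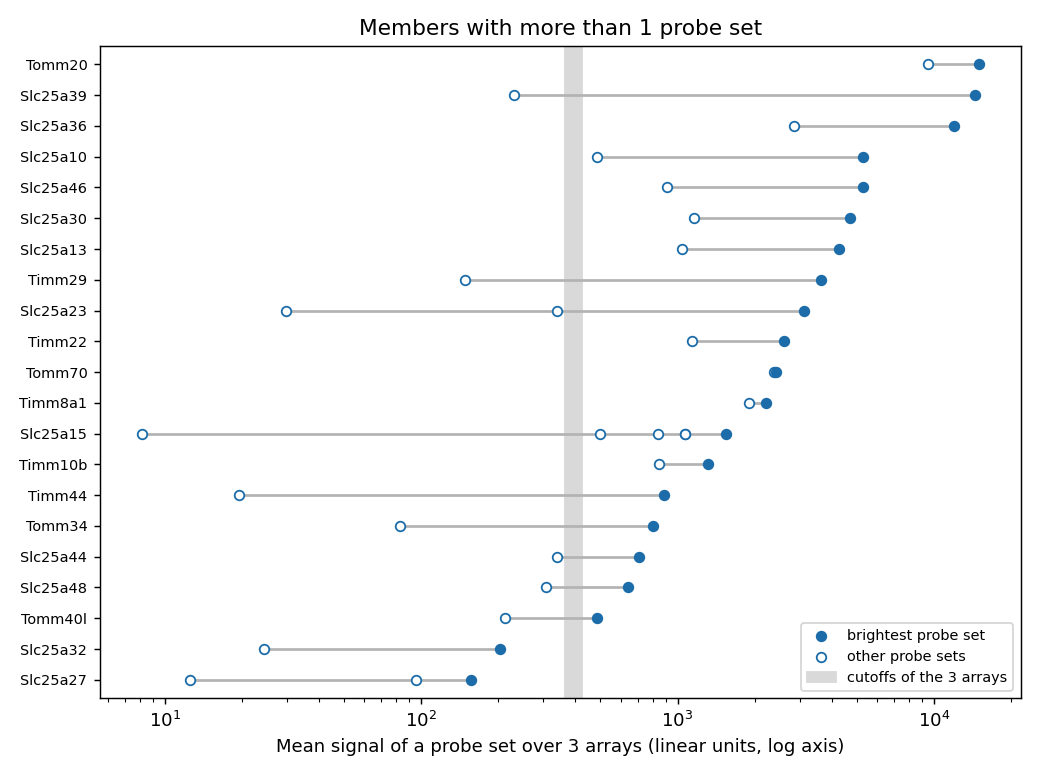
Mean signal over the 3 arrays (log axis) of every probe set of the 21 members with more than 1; filled points are the brightest, open points the others, and the grey band covers the cutoffs. Lines cross the band where probe sets of 1 gene fall on both sides of it, as for Slc25a39 (14418 and 229) and Timm44 (886 and 19.5).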

How the data were processed

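The deposited values were linear signal intensities, which the authors gave for every probe set of each array. Per the labels' protocols, RNA was taken up in Trizol and biotin-labelled cRNA was put on Affymetrix arrays. The summary method and its software are not given in the sources used here. With the lowest and highest 2% of values left out, the mean was 1000 on all 3 arrays, so no further scaling was applied. Log2 was taken without a pseudocount, since the lowest value was 0.217.

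Gene symbols came from the platform annotation, checked against RefSeq. Of 31099 probe sets, 20826 had 1 symbol, 436 several and 9780 none, and 57 were controls. Log2 signal minus each array's cutoff was tested with limma 3.58.1 (lmFit and eBayes, R 4.3.3, one-sided, Benjamini-Hochberg over 14217 genes). The cutoff was treated as known, and its own error is not covered. The test was checked on simulated data. The number of arrays limits the precision. The members, lists and cutoff genes were chosen with earlier results of these data known, and Myh1 was left out of the cutoff genes because its signal was known to be high. The immediate early genes, motifs and promoters were chosen after values were seen. All members are named. Values on each array are given for the 2 highest of each role, those with a range above 1 log2 unit, those detected whose probe sets lie more than 4 log2 units apart, the 3 detected nearest the cutoff and all not detected. Of the 2 further mitochondrial lists, the 3 highest and all not detected are named. Alternatives changed the normalization, pseudocount, probe set, cutoff, filter, test and arrays used. Where an alternative changed the signals, the cutoff was recomputed from the same cutoff genes.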

Additional observations from a re-analysis of the deposited data

How the results depend on the processing

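No paired analysis was possible because there was 1 group. Apart from the 99th percentile cutoff, alternatives that tested all 64 members gave 44 to 54 detected members (40.5% to 62% of all genes). The 99th percentile gave 36 (25.9%). The number was 49 to 52 with 1 array left out (49.7% to 52.4% of all genes). It was 46 with Myh1 among the cutoff genes (45.8%) and 49 with lmFit without eBayes (50.3%). After the filter 50 of 50 were detected, and so were 99.8% of all genes then tested. A cutoff without the 3 highest other-tissue genes, chosen after seeing the data, gave 54 (59.9% of all genes). Under the 99th percentile 18 carriers and 3689 of all genes were detected. The members' median level over the median gene was 2.01 with the mean of all probe sets and 2.17 with the lowest, and 1.78 to 1.90 with 1 array left out. Of 818 values of single members under alternatives, 756 kept their direction and side of the threshold, and 33 members were called under every alternative that tested them. Calls lost without a change of sign were those of Slc25a25, Slc25a42, Slc25a44, Slc25a48 and Tomm34 with Myh1, of Slc25a15, Slc25a44 and Slc25a48 with the mean of probe sets, of Slc25a44 with the lowest, of Slc25a15, Slc25a33 and Slc25a51l1 at the 99th percentile, and of Slc25a25, Slc25a45 and Slc25a48 without eBayes, replicate 2 or replicate 3.

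Log2 signal minus cutoff changed sign in the following cases. At the 99th percentile it was -0.62 for Slc25a22, -0.46 for Slc25a24, -0.41 for Slc25a25, -0.034 for Slc25a35, -0.18 for Slc25a38, -0.997 for Slc25a42, -0.98 for Slc25a44, -1.21 for Slc25a45, -1.11 for Slc25a48, -0.079 for Timm10b, -0.21 for Timm17b, -0.65 for Timm44, -0.80 for Tomm34 and -1.62 for Tomm40l. At the 90th percentile it was 0.12 for Slc25a14, 1.07 for Slc25a21, 0.11 for Slc25a32 and 0.45 for Slc25a37. With the lowest probe set it was -5.34 for Slc25a15, -3.77 for Slc25a23, -0.63 for Slc25a39, -0.11 for Slc25a48, -1.17 for Timm29, -4.39 for Timm44, -2.06 for Tomm34 and -0.72 for Tomm40l. With the mean of probe sets it was -0.17 for Slc25a23, -1.49 for Timm44, -0.40 for Tomm34 and -0.14 for Tomm40l. Under both of the last 2 settings the cutoff was recomputed from the cutoff genes and fell to 340, 294 and 357. Slc25a21, which has 1 probe set, was at 0.26 under both for that reason alone. After quantile normalization, with its own cutoff, it was at 0.0051. With Myh1 among the cutoff genes Slc25a45 was at -0.0015 and Tomm40l at -0.41. With 1 array left out Tomm40l ran from -0.057 (without replicate 1) to 0.62 (without replicate 3), and was -0.024 without replicate 2. Slc25a21 ran from -0.16 (without replicate 2) to 0.12 (without replicate 3), and was 0.028 without replicate 1. Beyond the alternatives' own construction, the cause was not tested.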

Other observations

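A few probe sets that the annotation gives to several genes bear on the carriers and the import channel but were not counted among the members. The probe set shared by Timm23, Timm23b and a Timm23 pseudogene had signals of 10977, 10023 and 10143 on replicates 1, 2 and 3, 4.71 log2 units above the cutoff. Tim23 is the channel of the presequence translocase, and the array does not tell these genes apart. A pair of probe sets listed for 2 genes of the name Slc25a51, a carrier of NAD in mammalian mitochondria, had 6701, 5745 and 6120 and 3052, 2410 and 3334. All 3 probe sets were above the cutoff on every array.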
